A study of Mus musculus with 8 samples.

Results

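Interferon-stimulated genes were compared between aortas of ApoE-/- mice, which lack apolipoprotein E and develop atherosclerosis, and aortas of WT mice. The 40 genes were chosen by name from a list of genes that interferons induce, 28 of them as type I-like and 12 as gamma-like. A row was found in the count tables for 38 of the 40, that is 26 type I-like and 12 gamma-like genes, among 21859 genes in all. Mx1 and Mx2 were not analysed here. All 38 passed the filter on low counts, which kept 15077 genes. Each genotype had 4 male mice of 40 weeks on a chow diet, and 1 library of stranded, ribodepleted total RNA was made from the whole aorta of each mouse. The ApoE-/- animals lack the gene in every cell type, and no other allele or treatment was named for either group. The mice were matched for age and sex, and the study's methods do not say that animals were pooled.

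Interferons are secreted proteins that warn cells of infection. Type I interferons bind the receptor chains Ifnar1 and Ifnar2 and switch on antiviral genes through a complex that contains Stat2 and Irf9 and binds a promoter sequence called the interferon-stimulated response element (ISRE). Interferon gamma, made chiefly by T and NK cells, binds Ifngr1 and Ifngr2 and acts at the gamma-activated site (GAS), inducing guanylate-binding proteins, immunity-related GTPases and the machinery of antigen presentation. Many genes respond to both kinds of interferon, so the classes used here name the better known inducer and are not exclusive. In atherosclerotic arteries interferon responses are known chiefly from macrophages, T cells and endothelium.

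The number of read pairs counted on genes was 23240995 to 23940156 in ApoE-/- mice and 18375898 to 21664598 in WT mice, and 1 pair corresponded to 0.0406 (ApoE-/- 1) to 0.0554 (WT 3) CPM (counts relative to library size, scaled between libraries by the TMM method). The label check held: Apoe was at 14.7 to 36.3 CPM in ApoE-/- mice and at 536 to 857 CPM in WT mice (log2 fold change -4.83, SE 0.37, edgeR adjusted p = 0.0141). The mouse ApoE-/- 1 stood apart from the other 7. On the first principal component of the 500 most variable genes, which held 79.3% of their variance, it was at -66. The WT mice were between -24.1 and 9.82, and ApoE-/- 2, 3 and 4 were at 58.1, 6.36 and 43.1. The ApoE-/- mice thus lay at both ends, and ApoE-/- 2 and 4 stay in the fit without ApoE-/- 1. The 5 markers of sympathetic neurons summed to 3180 CPM in ApoE-/- 1. They summed to 39.6 to 250 CPM in the other ApoE-/- mice and 148 to 562 CPM in WT mice. The 6 markers of contractile smooth muscle, the tissue's main cell type, summed to 4588 CPM in ApoE-/- 1 against 10240 to 19338 CPM in the other 7 mice. The part of this tissue difference in the values given here was not tested, and the main results are given with and without ApoE-/- 1. The RNA came from whole aorta, where more cells of a type cannot be told apart from more RNA per cell.

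Promoter windows of the members are shown because the ISRE and the GAS are the known promoter elements of the responses. The windows, taken from RefSeq (GRCm38.p6), run from 250 bases before to 50 bases after the annotated start, and 31 of the 40 members matched one. Usp18, Oas2, Mx1, Mx2, Dhx58, Zbp1, Ifi27l2a, Rtp4 and Iigp1 did not. An ISRE-type motif was searched as GAAANNGAAA and a GAS-type motif as TTCNNNGAA, on both strands. The windows of Oas3 and Oas1a, the first called in edgeR and DESeq2 and the second in DESeq2 alone, are printed with those of Isg15 and Ifit1, which were not called, on the gene's strand with ISRE-type matches in capitals.
Oas3, chr5:120777610-120777909, minus strand: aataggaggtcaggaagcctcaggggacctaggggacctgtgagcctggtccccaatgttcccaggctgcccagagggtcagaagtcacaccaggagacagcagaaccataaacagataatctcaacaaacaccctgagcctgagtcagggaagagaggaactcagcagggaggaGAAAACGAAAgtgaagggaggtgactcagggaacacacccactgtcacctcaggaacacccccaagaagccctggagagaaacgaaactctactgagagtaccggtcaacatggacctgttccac
Oas1a, chr5:120907476-120907775, minus strand: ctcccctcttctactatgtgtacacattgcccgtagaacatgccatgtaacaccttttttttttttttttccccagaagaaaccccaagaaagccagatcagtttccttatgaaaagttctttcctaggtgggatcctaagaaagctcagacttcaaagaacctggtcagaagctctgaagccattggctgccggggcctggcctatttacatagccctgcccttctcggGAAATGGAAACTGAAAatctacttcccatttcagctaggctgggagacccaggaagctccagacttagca
Isg15, chr4:156200769-156201068, minus strand: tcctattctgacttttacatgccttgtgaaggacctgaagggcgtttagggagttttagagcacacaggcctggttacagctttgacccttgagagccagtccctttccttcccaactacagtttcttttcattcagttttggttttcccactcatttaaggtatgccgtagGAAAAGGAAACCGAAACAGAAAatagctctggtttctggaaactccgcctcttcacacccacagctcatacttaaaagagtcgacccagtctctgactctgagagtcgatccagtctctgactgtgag
Ifit1, chr19:34640639-34640938, plus strand: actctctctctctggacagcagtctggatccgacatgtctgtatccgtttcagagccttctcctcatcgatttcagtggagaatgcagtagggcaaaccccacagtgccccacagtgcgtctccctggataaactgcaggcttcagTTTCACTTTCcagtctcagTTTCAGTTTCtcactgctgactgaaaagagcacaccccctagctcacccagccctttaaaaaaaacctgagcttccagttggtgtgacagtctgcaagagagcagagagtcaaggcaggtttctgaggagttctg

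Oas3 held 1 match, from base -75 to base -66 before the start. Oas1a held 2 overlapping matches between bases -20 and -5, Ifit1 held 2 separate matches between bases -104 and -76, and Isg15 held 3 overlapping matches between bases -78 and -57. An ISRE-type match was present in 19 of the 31 members with a window (61.3%), against 1079 of all 27025 genes with a window (3.99%). Among type I-like members it was 12 of 20 (60%), and among gamma-like members 7 of 11 (63.6%). A GAS-type match was present in 10 of the 31 members (32.3%), against 9.55% of all genes. It was found in 6 of 11 gamma-like members (54.5%) and in 4 of 20 type I-like members (20%). The GAS-type and ISRE-type matches overlapped each other in Bst2 and Ifitm3. A match describes the letters in the window and is not a measured binding site.

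**Figure D1:**
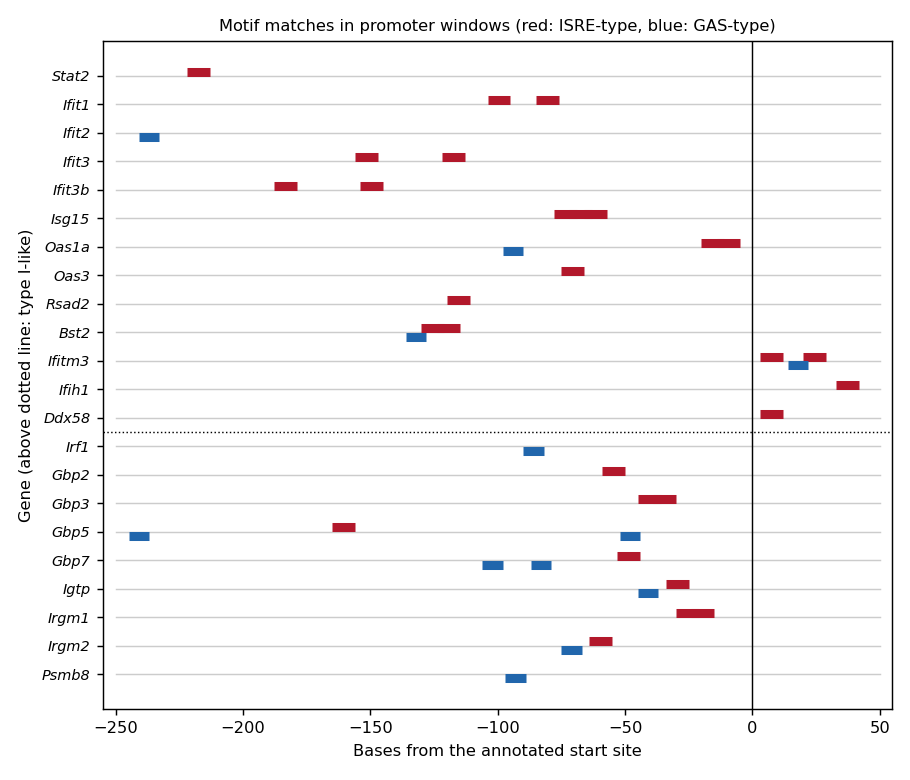
Positions of ISRE-type (red) and GAS-type (blue) motif matches in the promoter windows of the 22 members that hold at least 1 match, in bases from the annotated start site. Of the type I-like genes above the dotted line, 12 hold an ISRE-type match, and of the gamma-like genes below it, 7 do.

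Members with and without these letters had similar medians. The median log2 fold change (ApoE-/- over WT) was 0.27 over the 19 members with an ISRE-type match and 0.37 over the 12 members with a window but no match. Without ApoE-/- 1 both medians were 0.07. The fold changes ranged from 0.00 to 2.24 in those with a match and from -0.16 to 0.71 in those without. For the GAS-type motif the medians were 0.23 over 10 members with a match and 0.35 over 21 without, and -0.03 and 0.10 when ApoE-/- 1 was left out.

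The members tended to be higher in ApoE-/- aortas, but few passed a test. The log2 fold change was above 0 in 34 of 38 members (89.5%), against 58% of all genes tested, and its median was 0.33 over the members and 0.05 over all genes. Only Oas3 rose at an adjusted p under 0.05 in edgeR's quasi-likelihood test, where 0.371% of all genes were called higher. Oas1a, Oas2 and Oas3 rose in DESeq2, where 3.12% of all genes were called higher. At an unadjusted p under 0.05 in edgeR 7 members were higher (18.4% of the 38), against 7.19% of all genes. They were Oas1a, Oas2, Oas3, Zbp1, Irf7, Irf9 and Rtp4. The CPM of all 4 ApoE-/- mice lay above those of all 4 WT mice in 4 members, Oas1a, Oas2, Oas3 and Zbp1 (10.5%), against 5.41% of all genes. No member was lower in edgeR or DESeq2 at an adjusted p under 0.05, in edgeR at an unadjusted p under 0.05, or without overlap. All members named by any of these rules were type I-like, and the difference between the classes in these counts was not tested.

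**Figure D2:**
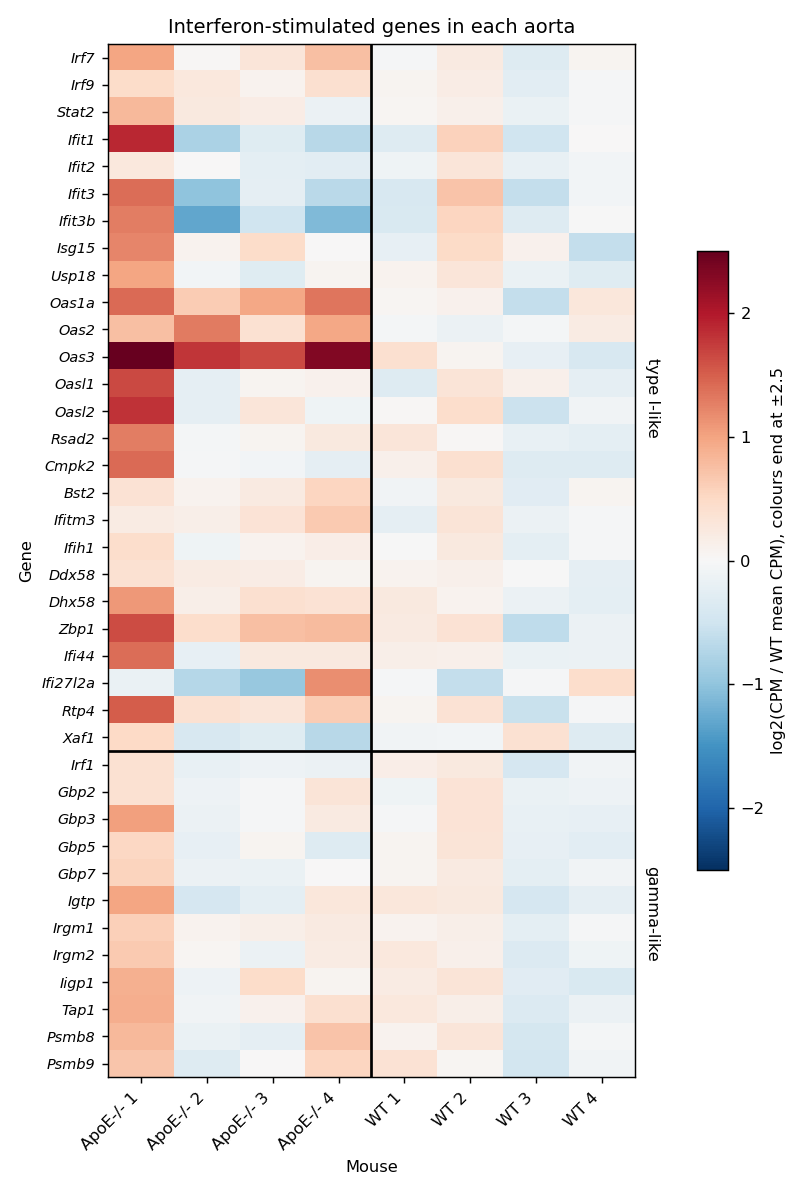
Level of each of the 38 members (rows) in each of the 8 aortas (columns), as log2 of the CPM over the mean CPM of the 4 WT mice. Type I-like genes are above the line and gamma-like genes below it. The column of ApoE-/- 1 is the reddest of the 8 and is highest in 33 of 38 genes, while Oas3 is red in all 4 ApoE-/- mice.

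Much of the upward tendency lay in 1 mouse. ApoE-/- 1 had the highest CPM of all 8 mice in 33 of the 38 members, in 21 of 26 type I-like and 12 of 12 gamma-like genes, and it was above every WT mouse in 35. The median over members of its level relative to the WT mean was 1.86-fold. The same median was 0.953-fold in ApoE-/- 2, 1.05-fold in ApoE-/- 3 and 1.16-fold in ApoE-/- 4, which lies inside the span of the WT mice, 0.846-fold in WT 3 to 1.18-fold in WT 2. WT 3 was the lowest of all mice in 19 members.

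Without ApoE-/- 1, 26 of 38 members had a log2 fold change above 0 (68.4%), against 50.8% of all genes, with a median of 0.11 over members and 0.00 over all genes. The calls were again Oas3 in edgeR, where 2.75% of all genes were called higher, and Oas1a, Oas2 and Oas3 in DESeq2, where 5.75% were. The same 4 members lay above all WT mice, against 9.87% of all genes. Ifit3b lay below all WT mice, as 7.39% of all genes did. At an unadjusted p under 0.05 in edgeR 5 members were higher, Oas1a, Oas2, Oas3, Zbp1 and Ifitm3, against 9.93% of all genes. Ifit3b and Xaf1 were lower by that rule, against 8.73% of all genes, and Irf7, Irf9 and Rtp4 no longer passed it. The upward tendency of the list as a whole therefore shrank from a median of 0.33 to 0.11 on the log2 scale. The calls in the OAS family were kept, but 2 shares of the 38 members were close to those of all genes. They were the share called higher in edgeR and the share lying above all WT mice.

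**Figure D3:**
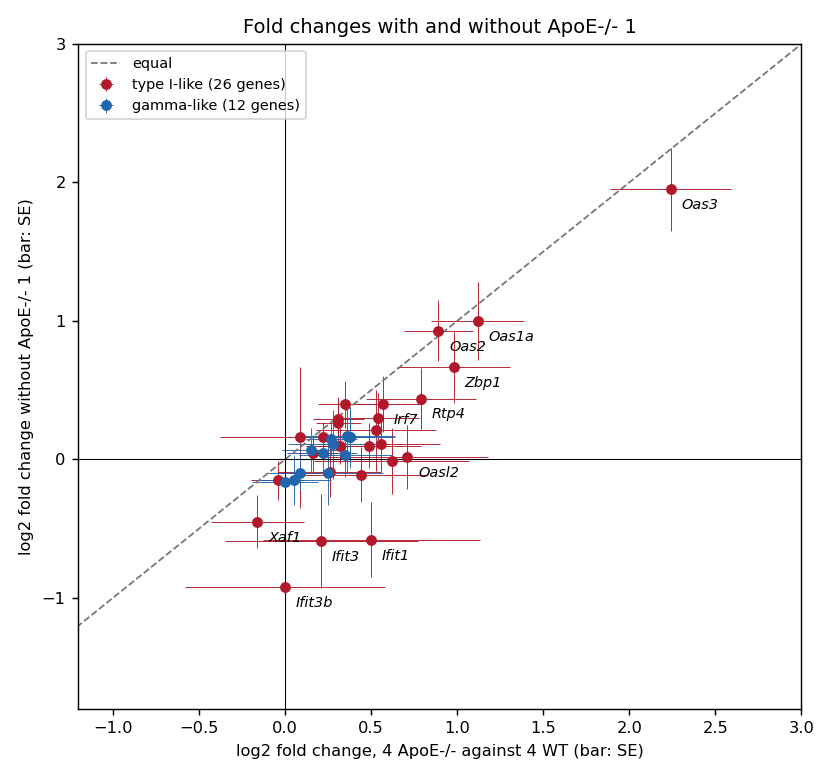
Log2 fold change (ApoE-/- over WT) of each member with all 8 mice (x axis) and without ApoE-/- 1 (y axis), with standard errors, for 26 type I-like (red) and 12 gamma-like (blue) genes. Oas1a, Oas2 and Oas3 lie near the line of equal values, while Ifit1 and Ifit3 move from 0.50 and 0.21 to -0.58 and -0.59.

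The OAS family held the clearest difference. Its enzymes sense double-stranded RNA and make short oligoadenylates that activate RNase L, which then cuts RNA in the cell. Oas3, the member that prefers long double-stranded RNA, was at 3.29, 1.57, 1.44 and 2.26 CPM in ApoE-/- mice 1 to 4 and at 0.597, 0.468, 0.388 and 0.335 CPM in WT mice 1 to 4. All 4 ApoE-/- mice were above all 4 WT mice, with ApoE-/- 1 the highest. The mean was 2.14 CPM ± 0.845 (SD, n = 4) in ApoE-/- and 0.447 CPM ± 0.114 (SD, n = 4) in WT mice. The 4.73-fold difference (log2 fold change 2.24, SE 0.35) had an adjusted p of 0.0462 in edgeR and 6.82e-05 in DESeq2. With ApoE-/- 1 left out the log2 fold change was 1.95 and the edgeR adjusted p 0.0155. Leaving out any of the other 7 mice took the edgeR adjusted p over 0.05, up to 0.177, with a log2 fold change of 1.95 to 2.41 in all 8 cases. The level rested on few reads, 33 to 81 pairs in ApoE-/- and 7 to 13 pairs in WT mice. Oas3 lies at chr5:120753098-120777661 on the minus strand (GRCm38, GENCODE M21), and 0.521% of the 50-base stretches of its transcripts recur in transcripts of other genes.

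Oas2, another activator of RNase L, lies beside Oas3 at chr5:120730333-120749853 on the same strand. It was at 10.8, 15.8, 8.41 and 12.5 CPM in ApoE-/- mice 1 to 4 and at 6.24, 5.80, 6.26 and 7.42 CPM in WT mice 1 to 4. The genotypes did not overlap, and here ApoE-/- 2 and not ApoE-/- 1 was the highest mouse. The difference was 1.85-fold (log2 fold change 0.89, SE 0.20), with an adjusted p of 0.104 in edgeR and 0.00657 in DESeq2. It was 0.93 on the log2 scale without ApoE-/- 1 (edgeR adjusted p = 0.0603, DESeq2 adjusted p = 0.00489).

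Oas1a, the main catalytic member of the mouse Oas1 group, was at 4.26, 2.49, 3.14 and 4.04 CPM in ApoE-/- mice 1 to 4 and at 1.65, 1.73, 1.05 and 1.96 CPM in WT mice 1 to 4. All ApoE-/- mice were above all WT mice. The difference was 2.17-fold (log2 fold change 1.12, SE 0.27), with an adjusted p of 0.114 in edgeR and 0.00931 in DESeq2, and the log2 fold change was 1.00 without ApoE-/- 1. Of the 50-base stretches of its transcripts, 57.6% recur in other genes, chiefly Oas1g. Only uniquely assigned pairs were counted, so that pairs from these stretches could be left out and its value is uncertain. Oas1g itself, which is no member, was at 0.738 to 1.18 CPM in ApoE-/- and 0.166 to 0.643 CPM in WT mice, also without overlap (log2 fold change 1.04, SE 0.42, edgeR adjusted p = 0.388).

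The OAS-like genes did not share this pattern. Oasl1, which lacks synthase activity, was at 5.68, 1.53, 1.87 and 1.91 CPM in ApoE-/- mice 1 to 4 and at 1.42 to 2.25 CPM in WT mice. Oasl2 was at 60.5, 14.8, 21.3 and 16.1 CPM in ApoE-/- mice 1 to 4 and at 11.9 to 23.3 CPM in WT mice. In both genes ApoE-/- 1 alone was above the WT mice. The log2 fold changes of 0.62 (SE 0.45) and 0.71 (SE 0.47) became -0.01 and 0.02 without that mouse.

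**Figure D4:**
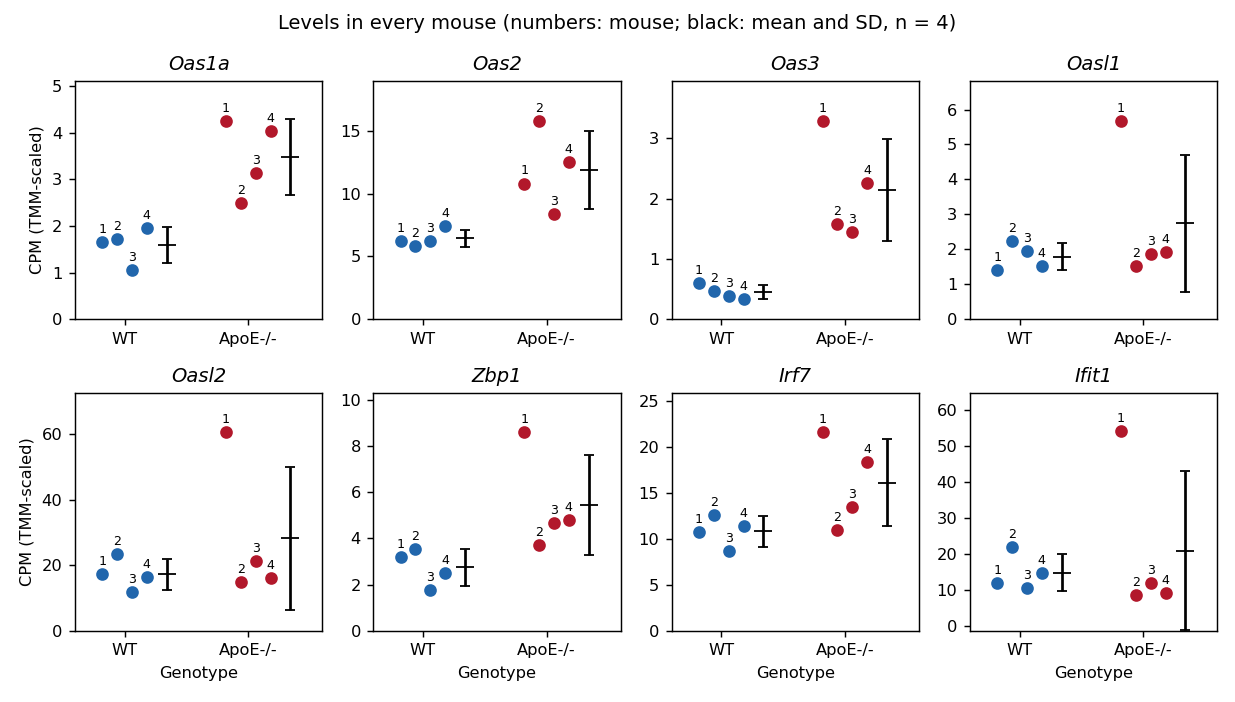
CPM of 8 members in every mouse, WT in blue and ApoE-/- in red, with the mouse number above each point and the mean and SD (n = 4) in black. In Oas1a, Oas2, Oas3 and Zbp1 all red points are above all blue points, while in Oasl1, Oasl2 and Ifit1 only ApoE-/- 1 stands above the WT mice.

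Among the nucleic acid sensors Zbp1 was the gene without overlap. Zbp1 binds Z-form nucleic acids and starts necroptosis. It was at 8.60, 3.72, 4.66 and 4.82 CPM in ApoE-/- mice 1 to 4 and at 3.21, 3.56, 1.77 and 2.49 CPM in WT mice 1 to 4. The gap between ApoE-/- 2 and WT 2 was small, and ApoE-/- 1 was well above the rest of its group. The log2 fold change was 0.98 (adjusted p = 0.264 in edgeR, SE 0.33, DESeq2 adjusted p = 0.103) and 0.67 without ApoE-/- 1. The RNA helicases of this group overlapped between genotypes, with log2 fold changes of 0.54 (SE 0.24) for Dhx58, which tunes the other helicases, 0.22 (SE 0.11) for Ddx58, which encodes RIG-I, and 0.16 (SE 0.15) for Ifih1, which encodes MDA5. These values were 0.30, 0.16 and 0.05 without ApoE-/- 1.

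Irf7, the transcription factor that amplifies type I interferon production and the marker of the list, was at 21.6, 11, 13.5 and 18.4 CPM in ApoE-/- mice 1 to 4 and at 10.7, 12.6, 8.64 and 11.4 CPM in WT mice 1 to 4. ApoE-/- 2 lay inside the WT range and the other 3 ApoE-/- mice lay above it. The log2 fold change was 0.57 (SE 0.23, unadjusted p = 0.036, edgeR adjusted p = 0.377), and 0.40 without ApoE-/- 1. Irf9 and Stat2, components of the type I complex, had log2 fold changes of 0.31 (SE 0.13) and 0.32 (SE 0.20), neither called, and 0.26 and 0.10 without ApoE-/- 1. Irf9 overlaps Rnf31 on the same strand, and reads in the overlap could not be assigned to either.

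The IFIT family, antiviral proteins that bind foreign RNA ends, had a median log2 fold change of 0.10 with all mice and of -0.59 without ApoE-/- 1. Ifit1 was at 54.0, 8.48, 11.8 and 9.03 CPM in ApoE-/- mice 1 to 4 and at 11.7, 21.9, 10.5 and 14.7 CPM in WT mice 1 to 4. ApoE-/- 1 was above all WT mice, ApoE-/- 2 and 4 were below all of them and ApoE-/- 3 lay within the WT range. DESeq2 gave Ifit1 no adjusted p with all mice. The log2 fold change of 0.50 (SE 0.63) became -0.58 (adjusted p = 0.302 in edgeR, SE 0.27) without ApoE-/- 1. Ifit3b was at 13.0, 2.19, 3.83 and 2.52 CPM in ApoE-/- mice 1 to 4 and at 4.13, 7.82, 4.32 and 5.36 CPM in WT mice 1 to 4. With ApoE-/- 1 left out its genotypes did not overlap, with a log2 fold change of -0.92 (adjusted p = 0.152 in edgeR, SE 0.31, DESeq2 adjusted p = 0.0549), against 0.00 with all mice. Ifit3 went from 0.21 to -0.59 and Ifit2 from -0.04 to -0.15 on the same scale. Ifit3 and Ifit3b share 51.2% and 45% of their 50-base stretches, chiefly with each other, so that their separate values are uncertain. No IFIT gene was called in either fit. The 4 genes lie together on chromosome 19, from Ifit2 (chr19:34550694-34576419) to Ifit1 (chr19:34640871-34650009), all on the plus strand.

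The remaining type I-like members overlapped between genotypes. Isg15, a ubiquitin-like modifier, and Usp18, the protease that removes it, had log2 fold changes of 0.53 (SE 0.35) and 0.26 (SE 0.30), which were 0.21 and -0.09 without ApoE-/- 1. The antiviral effectors Rsad2 (viperin), Cmpk2, its neighbour and a mitochondrial nucleotide kinase, Bst2 (tetherin), which holds virus particles at the cell surface, and Ifitm3, which blocks virus entry, had log2 fold changes between 0.31 and 0.49. Rsad2 and Cmpk2 were high in ApoE-/- 1 only, at 53.8 and 36.3 CPM against 21.6 to 26.5 and 11.7 to 13.4 CPM in the other ApoE-/- mice, and their log2 fold changes of 0.49 and 0.44 were 0.10 and -0.11 without it. Ifitm3 and Bst2 had their highest level in ApoE-/- 4, and their log2 fold changes of 0.35 and 0.31 were 0.40 and 0.29 without ApoE-/- 1. Rtp4, an inhibitor of RNA virus replication, was at 7.10 to 16.5 CPM in ApoE-/- and 3.93 to 7.44 CPM in WT mice (log2 fold change 0.79, SE 0.32, edgeR adjusted p = 0.377), and the difference was 0.44 without ApoE-/- 1. Ifi44 had a log2 fold change of 0.56, or 0.11 without ApoE-/- 1, and Ifi27l2a of 0.09, with Ifi27l2a spread from 91.5 to 393 CPM among ApoE-/- mice. Xaf1, a promoter of apoptosis, had the lowest value of all members, -0.16 (SE 0.27), and -0.45 (SE 0.19) without ApoE-/- 1.

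The gamma-like members were closer to no difference. The log2 fold change was above 0 in 11 of 12 and lay between 0.00 and 0.38, with a median of 0.26 against 0.47 over the 26 type I-like members. No gamma-like member passed an adjusted p of 0.05 in edgeR or DESeq2 or an unadjusted p of 0.05 in edgeR, and none was without overlap. The medians without ApoE-/- 1 were 0.06 for gamma-like and 0.14 for type I-like members. In that fit the gamma-like genes ranged from -0.16 to 0.17 and the type I-like genes from -0.92 to 1.95. The type I-like values thus spanned the wider range, and the difference between the class medians was not tested.

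The guanylate-binding proteins, large GTPases that attack vacuoles of intracellular microbes, had log2 fold changes of 0.15 for Gbp2, 0.35 for Gbp3, 0.05 for Gbp5 and 0.09 for Gbp7, with standard errors of 0.17 to 0.27. Leaving out ApoE-/- 1 took them to 0.07, 0.03, -0.15 and -0.10. The immunity-related GTPases, which act on the same vacuoles, had log2 fold changes of 0.25 for Igtp, 0.27 for Irgm1, 0.22 for Irgm2 and 0.38 for Iigp1, and of -0.10, 0.15, 0.05 and 0.16 without ApoE-/- 1. Igtp and Irgm2 overlap on the same strand of chromosome 11. Tap1, which carries peptides into the endoplasmic reticulum, and the immunoproteasome subunits Psmb8 and Psmb9 had log2 fold changes of 0.38 (SE 0.23), 0.36 (SE 0.28) and 0.28 (SE 0.26), which were 0.16, 0.17 and 0.11 without ApoE-/- 1. ApoE-/- 1 and ApoE-/- 4 were the highest mice in Psmb8, at 36.4 and 33.7 CPM, with 17.6 and 18.3 CPM in the other ApoE-/- mice and 15.1 to 25.4 CPM in WT mice. Irf1, an early transcription factor of the gamma response, had nearly equal means, at 46.3 CPM ± 9.42 (SD, n = 4) in ApoE-/- and 46.4 CPM ± 9.07 (SD, n = 4) in WT mice. The difference on the log2 scale was 0.00 with a standard error of 0.19, and -0.16 (SE 0.16) without ApoE-/- 1.

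**Figure D5:**
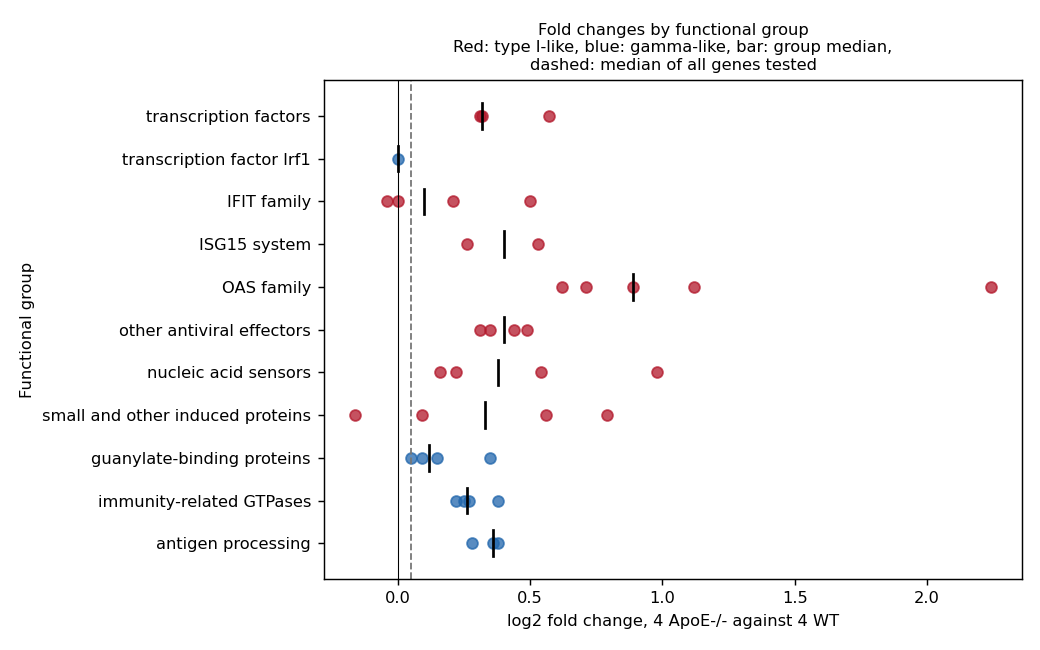
Log2 fold change (ApoE-/- over WT, all 8 mice) of the 38 members by functional group, type I-like in red and gamma-like in blue, with the median of each group as a black bar and the median of all genes tested as a dashed line. The OAS family has the highest group median, 0.89, and the guanylate-binding proteins lie between 0.05 and 0.35.

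The members spanned a wide range of mean levels. Per kilobase of annotated exon, Ifi27l2a had the highest mean level in WT mice, 378 CPM per kb, followed by Ifitm3 with 109, Gbp2 with 18.3 and Bst2 with 17.5 CPM per kb. Oas3 had the lowest level of all 38 members, 0.0632 CPM per kb in WT and 0.303 CPM per kb in ApoE-/- mice. The members that differed without overlap were thus from the lower end of the order, with Zbp1 at 0.782, Oas1a at 0.849 and Oas2 at 1.44 CPM per kb in WT mice.

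Further genes of the pathway were taken from 6 lists of 99 genes that are no members, of which 71 were tested. None was called in edgeR. DESeq2 called 10 higher, against 3.12% of all genes, and 0 lower. Above all WT mice lay 16, against 5.41% of all genes, and 0 lay below. At an unadjusted p under 0.05 in edgeR 19 were higher, against 7.19% of all genes, and 0 lower. With ApoE-/- 1 left out edgeR called 4 higher and DESeq2 12, against 2.75% and 5.75% of all genes. The 12 included Tlr7, an endosomal RNA receptor (DESeq2 adjusted p = 0.00266), and Ptpn2, a phosphatase that limits cytokine signalling (DESeq2 adjusted p = 0.0447), which were not called with all mice. The median log2 fold change was 0.20 over these 71 genes, and 0.15 without ApoE-/- 1.

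The ligands were near the limit of detection. Ifnb1, the interferon beta gene, had 1 read pair in WT 2 and none in the other 7 mice. Ifng, the interferon gamma gene, had 1, 0, 2 and 0 pairs in ApoE-/- mice 1 to 4 and 3, 0, 0 and 1 pairs in WT mice 1 to 4. No interferon alpha gene had more than 2 pairs in any mouse. A count of 0 allows up to 3 pairs, which is 0.122 CPM in ApoE-/- 1 and 0.166 CPM in WT 3. Ifnk, the keratinocyte interferon, was the only ligand tested, with 10 to 18 pairs in ApoE-/- and 11 to 19 in WT mice (log2 fold change -0.24, SE 0.28, edgeR adjusted p = 0.831). For the other ligands the counts were too low for a test.

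All receptor chains were expressed. Ifngr2, the signalling chain of the interferon gamma receptor, was at 46.2, 60.5, 59.1 and 58.2 CPM in ApoE-/- mice 1 to 4 and at 44.4, 41.0, 39.8 and 33.0 CPM in WT mice 1 to 4. The genotypes did not overlap, and ApoE-/- 1 was the lowest of its group, close to WT 1. The log2 fold change was 0.50 (adjusted p = 0.136 in edgeR, SE 0.13, DESeq2 adjusted p = 0.0291), and 0.59 without ApoE-/- 1 (edgeR adjusted p = 0.0322). Il10rb, shared by the interferon lambda and interleukin 10 receptors, was at 20.4 to 35.6 CPM in ApoE-/- and 15.5 to 20.1 CPM in WT mice (log2 fold change 0.51, SE 0.20, edgeR adjusted p = 0.359). The other chains overlapped, with log2 fold changes of 0.16 (SE 0.09) for Ifnar1, 0.13 (SE 0.18) for Ifnar2, -0.13 (SE 0.28) for Ifngr1 and 0.09 (SE 0.38) for Ifnlr1.

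Of 12 tested signal transducers and brakes, 3 rose in DESeq2, against 3.12% of all genes. The log2 fold change was below 0 in 4 of the 12, and the median was 0.13. Irf8, a factor of myeloid cells, was at 13.6 to 22.4 CPM in ApoE-/- and 7.04 to 9.55 CPM in WT mice (log2 fold change 1.1, SE 0.19, DESeq2 adjusted p = 2.76e-05, edgeR adjusted p = 0.0526). Irf5, which drives inflammatory genes in macrophages, had a log2 fold change of 1.18 (SE 0.25, DESeq2 adjusted p = 0.00187). Socs3, a brake on cytokine signalling, had a log2 fold change of 1.38 (SE 0.26, DESeq2 adjusted p = 0.000141). Without ApoE-/- 1 these 3 genes were also called in edgeR, with adjusted p of 0.0237, 0.0237 and 0.0171.

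Upstream of interferon, Tlr9, the endosomal DNA receptor, and Sting1, the adaptor of cytosolic DNA sensing, rose in DESeq2 with log2 fold changes of 0.98 (SE 0.19) and 0.67 (SE 0.19). Among other induced genes, DESeq2 called Slfn8 (0.89, SE 0.19), Lgals3bp (0.97, SE 0.24), Ifi47, a further immunity-related GTPase (0.61, SE 0.14), and Ciita, the master regulator of MHC class II (0.72, SE 0.17), all as log2 fold changes and all without overlap. For these 6 genes the edgeR adjusted p lay between 0.066 and 0.17.

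Markers of macrophages differed between genotypes as well. Of 9 macrophage markers, 8 lay above all WT mice in all 4 ApoE-/- mice, against 5.41% of all genes, with a median log2 fold change of 1.27 over the 9. DESeq2 called 5 of them higher, against 3.12% of all genes, and edgeR 0, against 0.371%. At an unadjusted p under 0.05 in edgeR 8 were higher, against 7.19% of all genes. Without ApoE-/- 1 DESeq2 called 8 higher and edgeR 5, against 5.75% and 2.75% of all genes. The sum of the 9 was 371 CPM in ApoE-/- 1, 625 to 1161 CPM in the other ApoE-/- mice and 334 to 386 CPM in WT mice. In ApoE-/- 1 the sum was lowered by Mertk, at 64.8 CPM against 111 to 167 CPM in WT mice, while the other 8 markers were above all WT mice. The median level of the 9 markers relative to the WT mean was 1.35-fold in ApoE-/- 1, 2-fold in ApoE-/- 2, 2.14-fold in ApoE-/- 3 and 4.13-fold in ApoE-/- 4. The 4 tested markers of monocytes had a median log2 fold change of 1.2, and the 5 listed summed to 34.2 to 75.8 CPM in ApoE-/- and 13.7 to 23.1 CPM in WT mice. For T and NK cells the 9 genes with a row summed to 4.90 to 10.2 CPM in ApoE-/- and 2.33 to 4.86 CPM in WT mice. The 5 genes listed for plasmacytoid dendritic cells, a strong source of type I interferon, summed to 58.1 CPM in ApoE-/- 1, 7.87 to 12.2 CPM in the other ApoE-/- mice and 12.5 to 20.9 CPM in WT mice, but 49.8 of the 58.1 CPM in ApoE-/- 1 were Pacsin1, a gene that neurons also express. Siglech, the defining gene of the list, was at 1.75 CPM in ApoE-/- 1 and had a log2 fold change of 0.28 (SE 0.38). Cox6a2, of the same list and also the muscle form of a respiratory chain subunit, lay below all WT mice and fell in DESeq2 (log2 fold change -3.01, SE 0.84, DESeq2 adjusted p = 0.00673). All 5 markers of sympathetic neurons had a log2 fold change above 0 (median 1.3), with none called in edgeR or DESeq2. Without ApoE-/- 1 all 5 were below 0 (median -1.93). In 5 further lists all markers also lay on 1 side of 0. On the log2 scale the difference was below 0 in 6 of 6 endothelial markers (median -0.34, 2 called lower in DESeq2, against 1.69% of all genes) and above 0 in 5 of 5 fibroblast markers (median 1.23, 3 called higher in DESeq2, against 3.12% of all genes) and 5 of 5 B cell markers (median 1.29, none called in DESeq2 or edgeR, 3 at an unadjusted p under 0.05). All 5 adipocyte markers were below 0 (median -0.48), with none called in edgeR or DESeq2 and 0 at an unadjusted p under 0.05. The difference was below 0 in 6 of 6 markers of cardiac muscle (median -2.42), of which 5 lay below all WT mice, against 3.3% of all genes, and 4 were called lower in DESeq2, against 1.69%. The part of these cell types in the differences of the members was not tested.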

How the data were processed

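The authors deposited, for each of the 8 mice, raw counts of uniquely assigned read pairs per gene, with no normalization and no pooling. Libraries were stranded, ribodepleted total RNA, sequenced as paired-end reads. The submitters' processing notes name TopHat2, HTSeq and the builds GRCm38 and mm10, and versions are not given in the sources used here. Pairs without a gene made up 64.4% to 72.1% of each file and were left out of library sizes and tests.

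In R 4.3.3 with edgeR 4.0.16, genes with low counts were removed (filterByExpr), libraries were scaled by TMM, and genotypes were compared over 15077 genes with the quasi-likelihood test (robust = TRUE). Benjamini-Hochberg adjustment ran over all genes tested, and 0.05 was the limit. The SE was the log2 fold change divided by the square root of F. Alternatives were DESeq2 1.42.0, the tool the study names, limma-voom (limma 3.58.1), other scaling factors and filters, a replicate block, and leaving out each mouse. The block is an alternative only, since same-numbered mice of different genotypes are different animals. The p-values set the difference between genotypes against the spread between mice. The scripts were tested on simulated data.

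The members, gene lists and their classes were chosen with earlier results of these data known. Values in every mouse are given for members past an adjusted p of 0.05 in edgeR or DESeq2, members whose genotypes do not overlap, and Irf7, and for a few others (Ifit1, Ifit3b, Oasl1, Oasl2) picked after their values were seen. Of the pathway lists, Ifng, Ifnb1, the receptors and the genes called in edgeR or DESeq2 are named, 1 gene that the rule lists by name is not reported here, and Il10rb, Ifnk and Oas1g besides. Gene positions and exon lengths came from GENCODE M21, where 21191 of 21859 identifiers matched with their version. Promoter windows came from RefSeq (GRCm38.p6), read with Python.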

Additional observations from a re-analysis of the deposited data

Results flagged for a closer look

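In each genotype of 4 mice, a gene is listed here when the gap between an extreme mouse and the next, divided by the whole range, exceeded Dixon's critical value for 4 samples. Of 76 such groups, 9 did, where chance would give 3.8 if the groups were independent. They are not independent, because the same 4 mice of a genotype supply the values of every gene. In 8 of the 9 flagged groups the mouse was ApoE-/- 1, at the top of its group. The ratios were 0.918 for Irf1, 0.926 for Ifit1, 0.833 for Ifit3, 0.848 for Ifit3b, 0.909 for Oasl1, 0.856 for Oasl2, 0.848 for Rsad2 and 0.931 for Cmpk2. Ifit1 was at 54.0 CPM in that mouse against 8.48 to 11.8 CPM in the other ApoE-/- mice, and Cmpk2 at 36.3 against 11.7 to 13.4 CPM. Irf1, the gamma-like gene among them, was at 60.4 against 40.6 to 42.3 CPM. The remaining gene was Gbp2 in WT mice, with a ratio of 0.906, where WT 2 was at 58.5 CPM and the other WT mice at 41.1 to 42.7 CPM. None of these genes is among those called in edgeR or DESeq2.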

How the results depend on the processing

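With 70 genes called in all (56 higher, 14 lower), DESeq2 called 725 (470 higher, 255 lower) and 3 members, and limma-voom 29 (21 higher, 8 lower) and 0 members. A filter of at least 10 pairs in every mouse left 9 lower calls and 0 members called, because Oas3 fell under it and was not tested. With the replicate number as a block, 2 genes were called (1 higher, 1 lower) and 0 members; the deviations of same-numbered mice correlated between -0.45 and 0.32, so the numbers do not pair the mice. Leaving out 1 mouse in turn gave 0 to 593 genes (0 to 417 higher, 0 to 176 lower), 0 to 1 members called and 4 to 8 members without overlap, where the highest numbers, 7 and 8, came without ApoE-/- 2 and without WT 2 (12.4% and 11.1% of all genes did not overlap there, against 8.71% with all mice), and no gene was called without ApoE-/- 3, WT 2 or WT 4. The type I-like median stayed between 0.14 and 0.60 and the gamma-like median between 0.06 and 0.38. DESeq2 without ApoE-/- 1, an alternative added after the data were seen, called 1562 genes (871 higher, 691 lower) and 3 members. The direction changed in DESeq2 without ApoE-/- 1 for Ifit1 (-0.59), Ifit3 (-0.61), Usp18 (-0.10), Oasl1 (-0.01), Cmpk2 (-0.11), Gbp5 (-0.15), Gbp7 (-0.10) and Igtp (-0.11), in limma-voom for Ifit3 (-0.03) and Ifi27l2a (-0.12), and with the block for Ifit3 (-0.04) and Ifi27l2a (-0.11), all on the log2 scale. Over the fits without 1 mouse the log2 fold change ran from -0.58 to 0.76 for Ifit1, -0.59 to 0.55 for Ifit3, -0.15 to 0.08 for Ifit2, -0.09 to 0.41 for Usp18, -0.01 to 0.82 for Oasl1, -0.11 to 0.61 for Cmpk2, -0.56 to 0.32 for Ifi27l2a, -0.15 to 0.18 for Gbp5, -0.10 to 0.18 for Gbp7 and -0.10 to 0.42 for Igtp. The cause was not tested. Other scaling factors, no filter and a fit without robust estimation kept the count of genes within 1.5 times. Depth limits Oas3, with 7 to 13 read pairs in WT mice, and the ligands.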
